A study of Mus musculus with 2 samples.

Results

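CC chemokines are small secreted proteins that draw leukocytes along a gradient, and each acts through a G protein-coupled receptor on the responding cell. The group described here holds 10 mouse genes of this family that act on monocytes, namely the chemokines Ccl2, Ccl7, Ccl12, Ccl3, Ccl4, Ccl5, Ccl6 and Ccl9 and the receptors Ccr1 and Ccr2. Its members were taken by name from the array annotation, and the group was chosen from differences already seen on these arrays, so those differences are given as a description and support nothing further. All 10 genes were found, as 16 probe sets with 1 gene symbol each, out of 18193 genes with such a probe set. There were 0 probe sets that paired a member with another symbol.

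Marrow of C57BL/6 mice received either control siRNA or silncMDSC, which targets lnc-C/EBPβ, a lncRNA (an RNA that codes for no protein) named lncMDSC in the labels. Both cultures then grew for 4 days in GM-CSF and IL-6, cytokines that drive marrow cells towards myeloid-derived suppressor cells (MDSCs), a mixture of immature monocyte-like and neutrophil-like cells. There was 1 Affymetrix array per siRNA, so the differences below lack replicates, and they are described without a test or a p. In whole cultures, fewer cells of a type and less RNA per cell cannot be told apart. The sources used here do not say how many mice gave marrow or whether it was pooled.

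Of the MDSC markers, Itgam, which encodes CD11b, had intensities of 2144 (control) and 2040 (silncMDSC), and S100a9, a calcium-binding protein of neutrophils and monocytes, had 13983 and 13880. The Ly6C probe set, annotated to both Ly6c2 and Ly6c1, had 8777 and 8671, and no probe set was named for Ly6g here. The targeted RNA itself was not analysed here. The arrays had medians of 77.9 and 79.0. The intensity at the median of all probe sets, 78.4, served as a floor that 11920 genes reached on at least 1 array, all 10 members among them. Differences below subtract log2(intensity + 1) on the control array from that on the silncMDSC array, and where a gene had several probe sets the brightest on average was used. Over the 11920 genes the median difference was -0.002 and the robust SD 0.18, which measures the scatter among genes and not between replicate cultures.

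Monocytes leave the marrow and enter inflamed tissue mainly through CCR2, whose mouse ligands include Ccl2, Ccl7 and Ccl12. Ccl3, Ccl4 and Ccl5 are inflammatory chemokines of which Ccl3 and Ccl5 act on CCR1. Ccl6 and Ccl9 are CCR1 ligands that mouse myeloid cells make in quantity. The genes from Ccl2 to Ccl5 and Ccl7 and Ccl12 are induced by inflammatory signals.

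The ligands of CCR2 were lower in the silncMDSC culture, the receptor Ccr2 was slightly higher, and the remaining ligands were lower, nearly level or, for Ccl5, higher. Among the 10 members, 4 were at least 1.5-fold lower (Ccl2, Ccl7, Ccl12 and Ccl4) and 1 at least 1.5-fold higher (Ccl5), where 1.42% of all 11920 genes were at least 1.5-fold lower and 0.948% at least 1.5-fold higher. At 2-fold, 3 members were lower (Ccl2, Ccl7 and Ccl12) and 0 higher, beside 0.134% and 0.168% of all genes. The members were picked with these differences known, so nothing is read from the excess over the background. Nearest to the 1.5-fold limit were Ccl5, at 1.68-fold, on the inside and Ccl3, at 1.46-fold, on the outside.

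**Figure D1:**
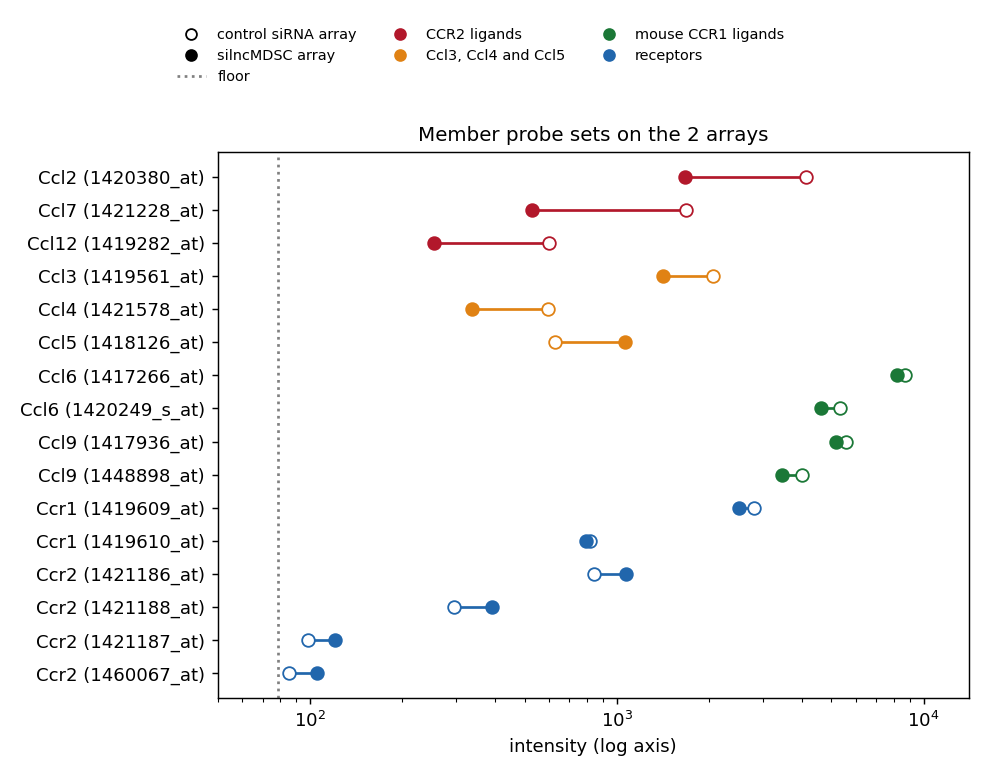
Intensity (x axis, log scale) of each of the 16 probe sets of the 10 members on the control siRNA array (open circles) and the silncMDSC array (filled circles), joined by a line, with 1 array per group. Ccl2, Ccl7 and Ccl12 shift left by more than 2-fold, Ccl5 and all 4 Ccr2 probe sets shift right, and all 16 lie above the floor of 78.4 (dotted line) on both arrays.

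Ccl7, which attracts monocytes through CCR2 and also binds CCR1, was the member farthest from control. Its intensity was 1678 in control and 527 in silncMDSC, or 31.4% of control. The difference of -1.67 (3.18-fold lower) ranked 2 from the lowest among the 11920 genes. Ccl2, the chief CCR2 ligand that calls monocytes out of the marrow, had 4138 in control and 1672 in silncMDSC, or 40.4% of control. Its difference of -1.31 (2.47-fold lower) ranked 3 from the lowest. Ccl12, a rodent CCR2 ligand closely related to Ccl2, had 600 in control and 254 in silncMDSC, a difference of -1.24 (2.36-fold lower) that ranked 5 from the lowest. All of these values were well above the floor on both arrays. The median difference of these 3 genes was -1.31. Each of these 3 chemokines is read by 1 probe set, so no second probe set checks its value.

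**Figure D2:**
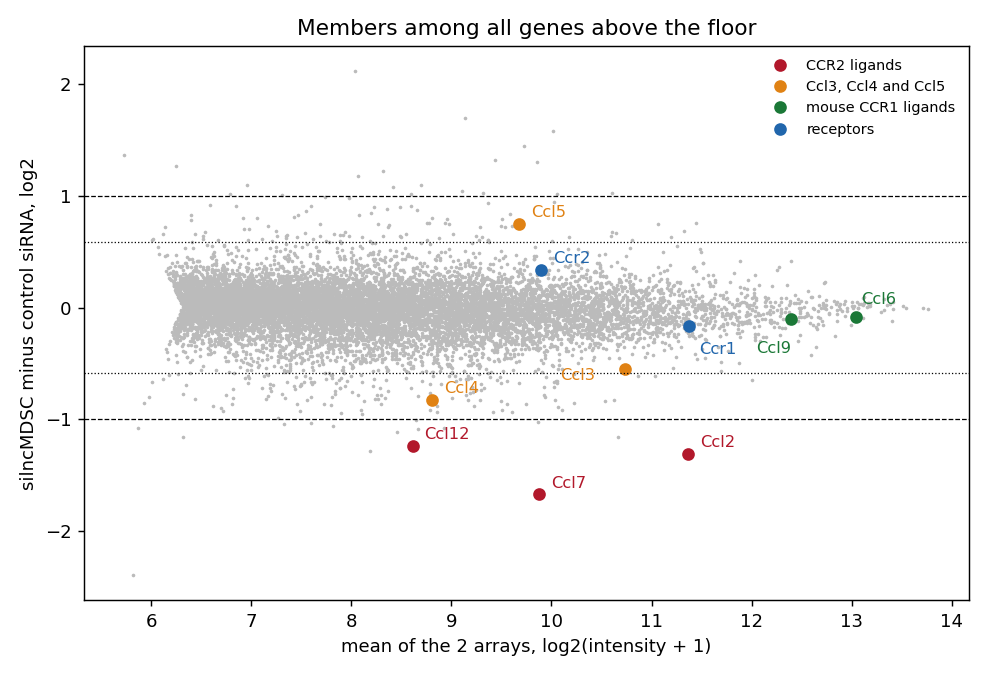
Grey points are the 11920 genes that reached the floor, placed by level averaged over the arrays (x axis, log2(intensity + 1)) and by silncMDSC minus control siRNA difference (y axis, log2), and dotted and dashed lines mark 1.5-fold and 2-fold. Ccl7 (-1.67), Ccl2 (-1.31) and Ccl12 (-1.24) lie below the 2-fold line, Ccl4 (-0.82) and Ccl5 (0.75) lie between the lines, and the bright Ccl6 and Ccl9 lie near 0.

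Ccl3, Ccl4 and Ccl5 did not share 1 direction. Ccl4, a chemokine that macrophages release on activation, had 596 in control and 337 in silncMDSC, a difference of -0.82 (1.77-fold lower) that ranked 51 from the lowest of all genes. Ccl3, a CCR1 ligand, had 2065 in control and 1412 in silncMDSC, a difference of -0.55 (1.46-fold lower), and 1.78% of all genes had a lower difference. Ccl5, which draws T cells as well as monocytes, had 630 in control and 1059 in silncMDSC, a difference of 0.75 (1.68-fold higher) that ranked 50 from the highest. Ccl5 was thus on the other side of 0 from Ccl3 and Ccl4. The gap between the Ccl5 and Ccl4 differences was 1.57, and that between Ccl5 and Ccl3 was 1.30. The median of these 3 genes, -0.55, is the value of Ccl3 and hides the opposite signs.

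T and NK cells are a known source of Ccl5, and their markers were read beside it. Of 7 such genes that reached the floor, the median was 0.05. Past 1.5-fold were 1 upwards and 0 downwards, beside 0.948% and 1.42% of all genes. The 1 was the NK receptor Klrd1, with 281 in control and 528 in silncMDSC (0.91). The cytotoxic granule gene Nkg7 was level at 775 and 752, Cd3e had 130 and 142, Cd3d 72.3 and 82.6 (0.19) and Cd4 207 and 194 (-0.09), and Cd3g, Gzma, Ncr1 and Prf1 were below the floor on both arrays. Summed over 11 genes, T and NK cell marker intensity was 2026 in control and 2264 in silncMDSC, a smaller rise than that of Klrd1 alone. Dendritic cell markers, another source of Ccl5, were higher, with a median of 0.39 and sums of 16688 and 22585. Past 1.5-fold were 4 of 10 genes upwards and 0 downwards, beside the same shares. On the brightest probe sets, the dendritic cell markers were led by H2-Eb1, a chain of MHC class II (0.75). Ciita, which switches class II genes on, was next (0.70, with 0.38 and 0.09 on other probe sets). Itgax, which encodes CD11c (0.66), and Ccr7, which guides cells to lymph nodes (0.64), followed. Much of the sums came from class II genes, with H2-Aa at 4661 and 6210, H2-Ab1 at 4379 and 5618 and Cd74 at 4360 and 5502. For H2-Ab1 this was a difference of 0.36, with 0.87 and 0.82 on other probe sets. For H2-Aa it was 0.41, with 0.49, 0.79 and 0.78 on others, so the size of these rises depends on the probe set. Zbtb46 (0.14) was nearer to 0, and Cd209a (-0.11) was the only 1 of the 10 below it. The part of these cells in the Ccl5 value was not tested.

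Ccl6 and Ccl9 were nearly level. Ccl6 had 8678 in control and 8178 in silncMDSC on the probe set read here (-0.09) and 5336 and 4617 on its other probe set (-0.21). Ccl9 had 5588 and 5196 (-0.11), with 4005 and 3442 on its other probe set (-0.22). All 4 probe sets were slightly lower in silncMDSC, by 1.06-fold to 1.16-fold. Differences this size were common, since 62.4% of all genes were at least as far apart as the brighter Ccl6 probe set and 24.8% as the dimmer Ccl9 probe set.

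The receptor Ccr2 was on the other side of 0 from its ligands Ccl2, Ccl7 and Ccl12, while Ccr1 was close to Ccl6 and Ccl9. Ccr2 was higher in silncMDSC on each of its 4 probe sets. The brightest had 845 in control and 1069 in silncMDSC, a difference of 0.34 (1.26-fold higher), and 3.84% of all genes had a higher one. The others had 295 and 392 (0.41), 98.2 and 121 (0.30), and 85.4 and 105 (0.29), so the range over 4 probe sets was 0.12. Those probe sets share 1 RNA sample per array and are no replicates of the cultures. Ccr1, which monocytes and neutrophils both carry, was slightly lower, with 2806 and 2506 on 1 probe set (-0.16) and 817 and 792 on the other (-0.04). The Ccr2 difference lay 1.65 above that of its ligand Ccl2 and 0.50 above that of Ccr1. No value in these data reads receptor protein or cell movement.

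**Figure D3:**
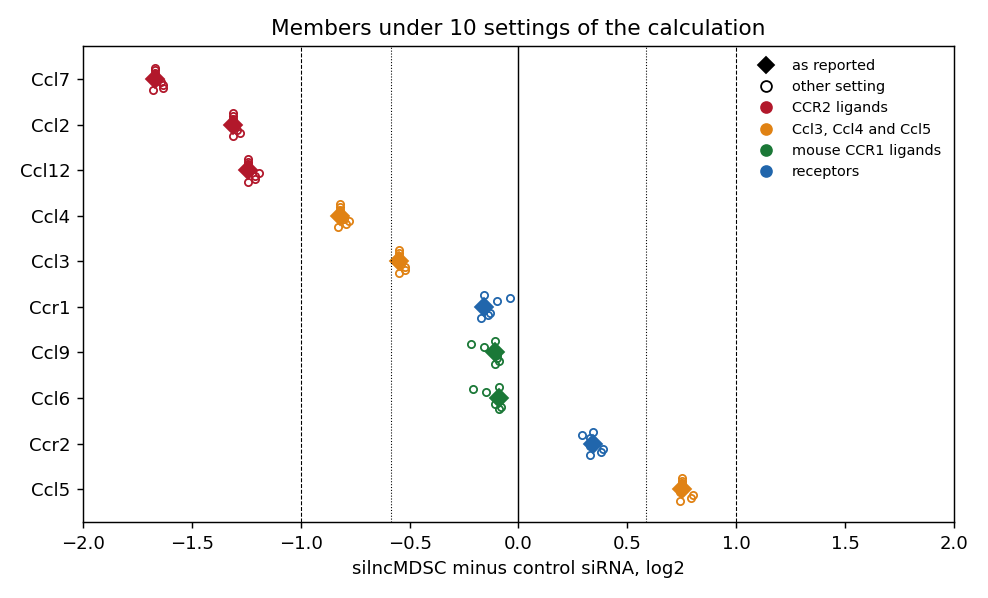
The silncMDSC minus control siRNA difference (x axis, log2) of each member as reported (diamonds) and under 9 other settings of the calculation (open circles), with dotted and dashed lines at 1.5-fold and 2-fold. No member crosses 0 or either line, and the widest ranges are those of Ccl6 (-0.21 to -0.08), Ccl9 (-0.22 to -0.09) and Ccr1 (-0.17 to -0.04), which have a second probe set.

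Position was not part of how the genes were picked. In the RefSeq gene table of assembly GRCm38.p6 the 8 chemokines lie on chromosome 11 in a pair of separate runs. The first run reads Ccl2, Ccl7, Ccl11, Ccl12, Ccl8, Ccl1 among protein-coding genes, and its members Ccl2, Ccl7 and Ccl12 are those more than 2-fold lower. The run was not lower throughout, because Ccl8 had 537 in control and 499 in silncMDSC (-0.11), and Ccl11 and Ccl1 were below the floor on both arrays, at 32.6 and 32.1 and at 68.8 and 77.4. The second run reads Ccl5, Ccl9, Ccl6, Ccl3, Ccl4, with differences of 0.75, -0.11, -0.09, -0.55 and -0.82 in that order. Its ends therefore differed in sign. On chromosome 9, Ccr1, Ccr1l1, Ccr3 and Ccr2 are neighbours, of which Ccr1l1 and Ccr3 were below the floor on both arrays.

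Promoter windows of 300 bases, 250 before and 50 after a transcript start, were taken from a RefSeq table (GRCm38.p6) that is not complete, and 6 of the 10 members were matched in it, Ccl12, Ccl3, Ccl6, Ccl9, Ccr1 and Ccr2. Windows of Ccl2, Ccl4, Ccl5 and Ccl7 were not used here. Because the study concerns a partner of C/EBPβ, and NF-κB, AP-1 and interferon factors are known inducers of chemokines, 4 motifs were searched on both strands. These were the C/EBP motif TTNNGNAA, the AP-1 motif TGANTCA, an NF-κB motif of GGG and TTTCC set 2 bases apart, and an interferon response motif of TTTC, 2 free bases and TTTC. Of all 32851 windows in the table, 40.7% held the C/EBP motif, 7.8% the AP-1 motif, 1.6% the NF-κB motif and 3.4% the interferon motif. Of the 6 windows, 3 are shown, for the member with a 2-fold difference that has one (Ccl12), for a smaller difference (Ccl3) and for a member that was nearly level (Ccl9), with motif matches in capitals, each printed 5′ to 3′ on the strand of its gene. They lie at chr11:82101595-82101894 (plus strand) for Ccl12, chr11:83649329-83649628 (minus strand) for Ccl3 and chr11:83578587-83578886 (minus strand) for Ccl9.
Ccl12: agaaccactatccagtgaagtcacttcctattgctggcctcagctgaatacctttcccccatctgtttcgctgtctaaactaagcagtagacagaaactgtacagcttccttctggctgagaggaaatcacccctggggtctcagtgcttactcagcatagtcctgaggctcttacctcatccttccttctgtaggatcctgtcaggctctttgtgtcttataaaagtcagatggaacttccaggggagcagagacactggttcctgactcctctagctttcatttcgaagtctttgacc
Ccl3: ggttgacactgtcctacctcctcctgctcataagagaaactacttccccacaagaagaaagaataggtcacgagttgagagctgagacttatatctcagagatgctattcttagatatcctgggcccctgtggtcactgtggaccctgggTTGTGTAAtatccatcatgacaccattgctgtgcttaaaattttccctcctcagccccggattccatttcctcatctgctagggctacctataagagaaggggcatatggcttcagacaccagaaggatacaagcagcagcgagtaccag
Ccl9: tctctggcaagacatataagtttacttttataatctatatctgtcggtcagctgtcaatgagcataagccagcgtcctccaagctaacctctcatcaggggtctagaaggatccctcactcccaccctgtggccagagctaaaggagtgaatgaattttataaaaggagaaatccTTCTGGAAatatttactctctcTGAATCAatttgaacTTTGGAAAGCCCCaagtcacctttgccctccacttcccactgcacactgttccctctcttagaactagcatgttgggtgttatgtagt

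The Ccl12 window, like that of Ccl6, held 0 matches to the 4 motifs. The Ccl3 window held 1 C/EBP match, TTGTGTAA, whose first base is 100 bases before the start. The Ccl9 window held the most, with C/EBP matches 75 and 38 bases before the start, an AP-1 match 53 bases before it, and an NF-κB match on the opposite strand 35 bases before it that overlaps the nearer C/EBP match. Ccr1 and Ccr2 held 1 C/EBP match each. A window without a match lacks only these exact letters, and looser forms of the motifs were not searched.

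The rest of the CC family held higher and nearly level genes. Of 10 other CC chemokines with a probe set of 1 gene symbol, 7 reached the floor. Probe sets shared by several symbols were left out, among them those of Ccl21 (105 and 118, 0.17) and Ccl19 (72.8 and 84.2, 0.21). The median of the 7 was 0.02, and 2 were past 1.5-fold upwards and 0 downwards, beside 0.948% and 1.42% of all genes. Ccl24, an eosinophil attractant, was 4.33-fold higher (125 and 546). The CCR4 ligands Ccl17 and Ccl22, made by dendritic cells and macrophages, had 1268 and 2015 (0.67) and 362 and 538 (0.57), and Ccl25, a thymic and gut chemokine, had 117 and 100 (-0.22). Other settings put this median between 0.00 and 0.62. Of 12 other CC receptors and atypical receptors with a probe set of 1 gene symbol, 6 reached the floor. Their median was 0.14, and 1 was past 1.5-fold upwards and 0 downwards, beside the same shares. The 1 was Ccr7, with 285 and 445. Ccrl2 (0.18) and the blood cell decoy receptor Ackr1 (0.18) were slightly higher. Ccr9, the Ccl25 receptor, is uncertain, because its brightest probe set gave 0.10 and another -0.93.

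**Figure D4:**
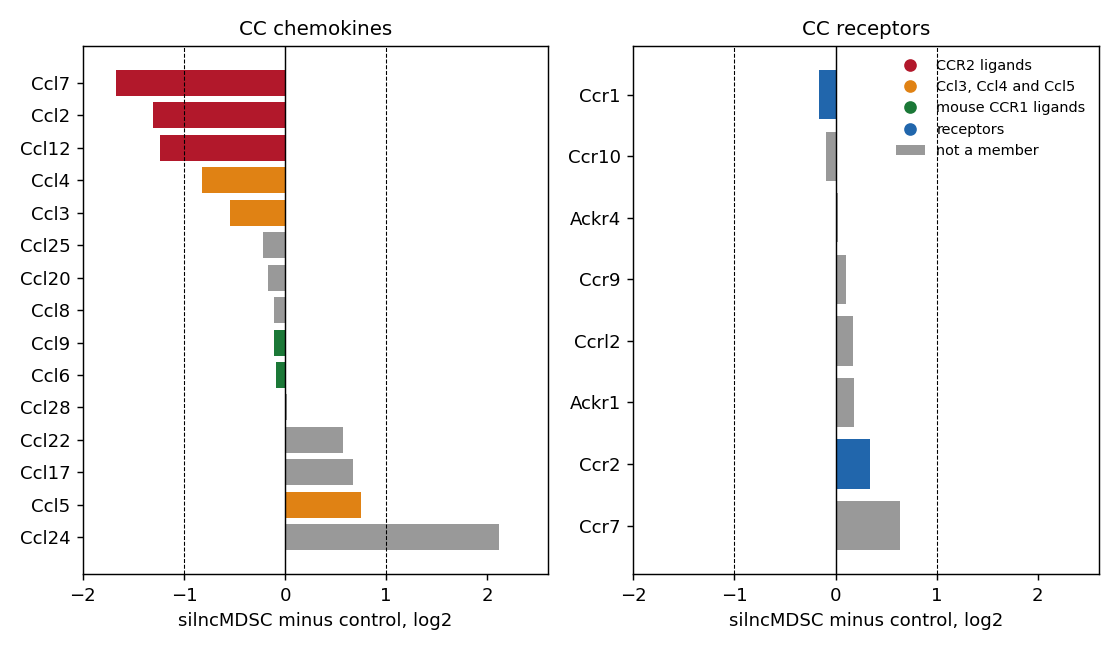
Bar length is silncMDSC minus control siRNA (x axis, log2, 1 array per group), for CC chemokines (left) and CC receptors (right) that reached the floor, coloured for members by role and grey for other genes, with dashed lines at 2-fold. The 5 lowest chemokine bars are all members, from Ccl7 at -1.67 to Ccl3 at -0.55, and the highest bar is Ccl24 at 2.11. Genes read only by probe sets with several symbols are not drawn.

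Genes that carry the receptor signal into the cell or damp it, taken as 1 list, lay on both sides of 0. Of 27 above the floor, 0 were at least 1.5-fold apart in either direction, 19 lay above 0 and 8 below it, and the median was 0.12. Grk3, a kinase that desensitises receptors, had 500 and 700 (0.48), the arrestin Arrb1 394 and 547 (0.47), Rgs10, which shortens G protein signals, 774 and 1063 (0.46), and Pik3r6, an adaptor of PI3-kinase gamma, 594 and 807 (0.44). Grk3 had other probe sets at 0.48 and 0.09. Nup85, also known as FROUNT, which binds CCR2 inside the cell, was the lowest of the group at 509 and 408 (-0.32, and -0.35 on another probe set), followed by Rgs18 at 689 and 594 (-0.21).

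Of the known inducers of CC chemokines, several were lower and most lay within 1.5-fold of control. The median of the 22 inducers that reached the floor was -0.13, with 7 of them above 0, led by Csf1 (0.31). Past 1.5-fold were 5 downwards and 0 upwards, beside 1.42% and 0.948% of all genes, and 17 lay between. The cytokine Il1a had 324 in control and 155 in silncMDSC (-1.06), Tnf had 400 and 226 (-0.82), Il6 had 302 and 183 (-0.72) and Il1b had 890 and 580 (-0.62). Fos, a subunit of AP-1, had 2098 and 1181 (-0.83), whereas its partner Jun had 985 and 924 (-0.09). The pattern receptors Tlr2 (-0.57) and Tlr4 (-0.33) were lower by less. The NF-κB subunit Rela (1463 and 1456) was level, and Cebpb differed by -0.15. Message levels do not read the activity of these factors, and their part in the chemokine values was not tested.

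Genes that destabilise chemokine messages or trim the proteins differed little. Of 12 above the floor, 0 were at least 1.5-fold apart, and the median was -0.05, though it turned to 0 or just above when the dimmest probe set of each gene was used. Zfp36, which encodes the message-destabilising protein TTP, had 573 and 566 (-0.02), and Mmp12, a macrophage protease that trims chemokines, had 4472 and 4511 (0.01). The farthest apart were Dpp4, a peptidase that shortens chemokines (0.38), and Elavl1, which stabilises messages (-0.32, with -0.33 and 0.03 on other probe sets). Hnrnpd and Mmp9 (both -0.19) followed.

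Markers of the cells that make or answer these chemokines did not all move with them. Monocyte markers, 8 of which reached the floor, had a median of 0.05 and summed intensities of 13220 in control and 13352 in silncMDSC. Past 1.5-fold were 1 downwards and 0 upwards, beside 1.42% and 0.948% of all genes. The 1 was Vcan (-1.01, with -0.92 and -0.65 on other probe sets). After Vcan the farthest apart were Ms4a6c, with 1457 and 1033 (-0.50, and -0.13 on another probe set), the fractalkine receptor Cx3cr1, with 67.3 and 87.3 (0.37), and S100a4, with 1878 and 2291 (0.29). Nearest to 0 were Csf1r (0.09), Cd14 (0.02) and F13a1 (-0.01). Of 11 macrophage markers, 5 were past 1.5-fold downwards and 0 upwards, beside the same shares of all genes. These markers were lower, with a median of -0.52 and sums of 16056 and 12698. Among them Mrc1 had 1074 and 562, Apoe 629 and 341, Msr1 1505 and 799 (-0.91) and Maf 1613 and 893 (-0.85). Other probe sets gave -0.88 to -0.40 for Msr1 and -0.71 to -0.41 for Maf. Adgre1, which encodes F4/80, was level at 3070 and 3068, and C1qa (-0.03) and Cd68 (-0.11) were nearly so. Over the settings of the calculation, 4 to 6 macrophage markers were past 1.5-fold downwards. Neutrophil markers had 0 of 11 at least 1.5-fold apart, a median of -0.09 and sums of 67268 and 64790. The farthest apart were the chemokine receptor Cxcr2 (0.44), the granule enzyme Mpo (-0.27), and Ltf and Mmp9 (both -0.19). Every marker read from these 3 lists was above the floor on both arrays except Cx3cr1, which was below it in control. Macrophages are a known source of Ccl2, Ccl7 and Ccl12, and the part of the lower macrophage messages in the lower chemokine values was not tested. The macrophage median and the Ccl2 difference come from the same pair of arrays, so their shared direction is 1 observation.

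**Figure D5:**
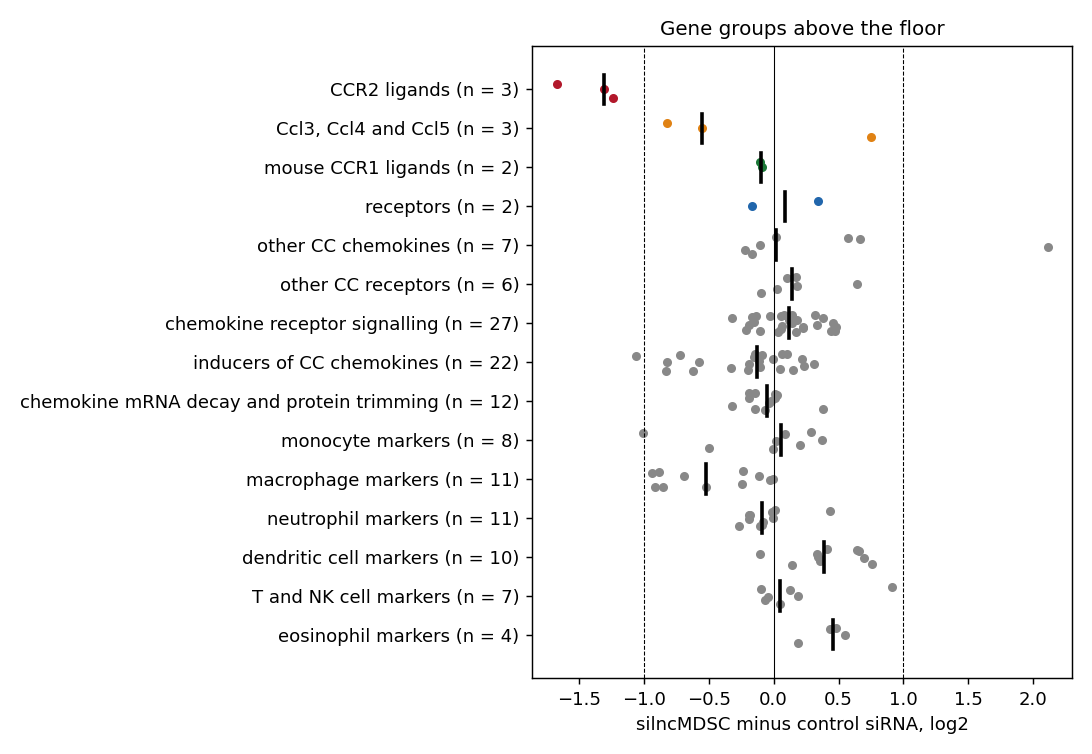
Points are genes that reached the floor and black bars are group medians, both as silncMDSC minus control siRNA (x axis, log2, 1 array per group), with dashed lines at 2-fold. The CCR2 ligands have the lowest median (-1.31), macrophage markers lie at -0.52, monocyte markers at 0.05 and dendritic cell markers at 0.39.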

How the data were processed

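Gene expression was measured on 1 Affymetrix whole-genome mouse expression array per siRNA. The authors deposited probe set intensities on a linear scale, with a lowest value of 1. The submitters' processing notes name RMA, without a version, and the sources used here do not give the step back from its usual log2 scale. The methods name limma, which has no residual degrees of freedom with 1 array per group, so no test was run.

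Of 45101 rows, 64 control probe sets were set apart. Of the other 45037, 34945 had 1 symbol, 932 several and 9160 none, and 34741 of those with 1 symbol matched a RefSeq table of GRCm38.p6 by Entrez identifier. Log2(intensity + 1) differences, which understate folds of dim genes, were taken with Python 3.11.15 and pandas 2.3.3. A gene entered when at least 1 array read it at the floor or above. The members and the related lists were chosen with earlier results of these arrays known. All members are named, with up to 4 genes of each related list that were farthest apart and any at least 2-fold apart. Other genes were named after their values were seen. Simulated data with folds set in advance checked only that the subtraction returned those folds, and they do not bear on the spread between cultures. Alternatives were centring, a loess trend (span 0.3), quantile normalization, a pseudocount of 16, no floor, a 75th percentile floor, the mean or the dimmest probe set, and leaving out probe sets that can cross-hybridise. The number of arrays limits the precision. Some genes of the lists are not reported here.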

Additional observations from a re-analysis of the deposited data

How the results depend on the processing

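Under all 9 alternatives, each of the 10 member differences kept its sign and moved by less than 0.18, the robust SD over genes, which is a scatter among genes and no measure of replicate error. The counts of members at least 1.5-fold lower (4), 1.5-fold higher (1), 2-fold lower (3) and 2-fold higher (0) were the same under each. The median of the CCR2 ligands ran from -1.31 to -1.28, that of Ccl3, Ccl4 and Ccl5 from -0.55 to -0.52, that of Ccl6 and Ccl9 from -0.21 to -0.08 and that of the receptors from 0.08 to 0.13. These settings share the same 2 arrays, so they do not speak to the spread between cultures. No paired analysis was possible because the groups share only replicate number 1, with 1 array each. No replicate could be left out for the same reason.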

Other observations

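Other cell types that can answer or make CC chemokines were read from short marker lists. Eosinophils, which respond to Ccl24 through CCR3, had 4 of 6 markers above the floor, 0 of them at least 1.5-fold apart, and a median of 0.46. The granule protein Prg2 had 2022 in control and 2954 in silncMDSC (0.55), Siglecf had 260 and 362 (0.48) Epx 392 and 529 (0.43) and Prg3 411 and 467 (0.18), while Ccr3 was below the floor at 38.5 and 37.5. Mast cell and basophil markers had 0 of 7 at least 1.5-fold apart and a median of 0.04, with Cpa3 at 0.48, Fcer1a at -0.44, Cd200r3 at 0.35 and Tpsb2 at 0.14. B cell markers had 3 of 5 above the floor and 0 at least 1.5-fold apart, with a median of -0.10 that turned to 0.06 without a floor. They were Ms4a1 at -0.17, Cd79a at -0.10 and Cd79b at 0.06.

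Stromal and endothelial cells also make Ccl2 and Ccl7. Of 8 of their markers, 6 were below the floor on both arrays (Col1a1, Col3a1, Pdgfra, Dcn, Lum and Cdh5). Of the other 2, Col1a2 had 92.2 and 101 (0.13), and Kdr, a receptor for vascular endothelial growth factor, had 534 in control and 308 in silncMDSC (-0.79). Of the MDSC markers above the floor, 0 of 5 were at least 1.5-fold apart and the median was -0.01, a sign that turned under 3 settings. Arg1, an arginase that suppressive myeloid cells use, had 3659 and 4124 (0.17), Cybb, an oxidase subunit, had 2806 and 2842 (0.02), and Nos2 was below the floor at 35.3 and 45.4.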
